A study of Mus musculus with 3 samples.

Results

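Of the 15797 TFAP2A peaks shared by both replicates on chromosomes 1 to 19 of melan-a melanocytes, 2629 (16.6%, exact 95% interval 16.1 to 17.2) had their summit within 1 kb of a transcription start site (TSS) of a protein-coding transcript. These 2629 promoter peaks are described here. A replicate 1 peak counted as shared when it had 1 bp or more in common with a replicate 2 peak, the summit was that of replicate 1, and the TSSs were those of all protein-coding transcripts of the GENCODE version 1 mouse annotation on mm9. The other 13168 shared peaks serve as the comparison. The promoter peaks covered 2676 of 21410 protein-coding genes, so 12.5% of all genes had a promoter peak at some TSS. Counting the TSS farthest 5' of each gene only, 2350 genes (11.0%) had one. Every share of genes below is read against these background values. A peak near the TSSs of several genes counted for each: 2355 peaks lay near 1 gene, 266 near 2 and 8 near 3.

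The study mapped where the transcription factor TFAP2A sits on the melanocyte genome, by chromatin immunoprecipitation and sequencing (ChIP-seq). The series holds 2 TFAP2A ChIP replicates, called B1 and B2 in the labels and replicates 1 and 2 here, and 1 input library without antibody, whose own values were not analysed here. All 3 came from untreated cells of melan-a, one immortalised mouse melanocyte line labelled with the genotype Cdkn2a tm1RDp/tm1RDp and with normal embryonic skin as tissue of origin. The medium held 12-O-tetradecanoylphorbol 13-acetate and cholera toxin for all libraries, and the antibody was AP-2alpha (3B5). Replicate 1 had 18528 peaks and replicate 2 had 21459 over all chromosomes. Each peak comes with a fold enrichment over background given by the peak caller, called enrichment below. Both replicates are of 1 line in 1 condition, so no condition is compared, and the spread given is that between these 2 libraries. RNA was not analysed here, so the melanocyte label could not be checked against marker transcripts and a bound gene cannot be called active or silent. The number of reads behind the peak lists is unknown.

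TFAP2A is a founding member of the AP-2 family, whose proteins bind DNA as dimers at a palindrome with GCC on one side and GGC on the other. The family acts in neural crest, skin and melanocytes, at promoters as well as at distant enhancers. Mammalian promoters fall broadly into CpG-rich ones, typical of housekeeping and developmental genes, and CpG-poor ones, typical of tissue-specific genes. Many CpG-rich promoters serve a pair of genes that are transcribed away from each other.

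The sequences around the summits of a few promoter peaks show what lies under them. Each line gives the mm9 position and the 5′ to 3′ sequence of 50 bp on either side of the summit, on the strand of the gene named, read from the reference genome. Capitals mark the TFAP2 string, which is GCCNNNGG on either strand. Pabpc4 and Atp5l are shown as the strongest peaks at CpG-rich promoters, the next 5 as pigment cell genes or their regulators, and the last 2 as peaks at gene pairs.
Pabpc4 (chr4:122959884-122959984, plus strand): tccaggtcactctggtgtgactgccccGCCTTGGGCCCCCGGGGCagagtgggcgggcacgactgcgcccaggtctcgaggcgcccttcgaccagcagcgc
Atp5l (chr9:44729160-44729260, minus strand): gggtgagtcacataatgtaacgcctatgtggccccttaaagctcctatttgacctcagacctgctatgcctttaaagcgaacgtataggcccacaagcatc
Mlana (chr19:29772105-29772205, plus strand): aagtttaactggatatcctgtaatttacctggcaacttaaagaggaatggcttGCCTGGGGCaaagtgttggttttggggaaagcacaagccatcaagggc
Slc45a2 (chr15:10930297-10930397, plus strand): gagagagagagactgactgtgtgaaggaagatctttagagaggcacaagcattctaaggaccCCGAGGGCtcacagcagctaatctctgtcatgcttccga
Mc1r (chr8:125930239-125930339, plus strand): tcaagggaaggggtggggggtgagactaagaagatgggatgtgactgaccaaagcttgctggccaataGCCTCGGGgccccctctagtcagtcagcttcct
Rab27a (chr9:72892831-72892931, plus strand): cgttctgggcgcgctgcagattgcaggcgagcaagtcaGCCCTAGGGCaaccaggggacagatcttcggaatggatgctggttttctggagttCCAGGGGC
Tcfap2a (chr13:40829804-40829904, minus strand): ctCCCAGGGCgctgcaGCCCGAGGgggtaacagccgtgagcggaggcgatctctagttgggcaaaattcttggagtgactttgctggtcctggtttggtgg
Pdcd10 (chr3:75360809-75360909, minus strand): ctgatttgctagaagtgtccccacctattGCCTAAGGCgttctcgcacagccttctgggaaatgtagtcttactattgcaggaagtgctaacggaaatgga
Cpsf7 (chr19:10600036-10600136, plus strand): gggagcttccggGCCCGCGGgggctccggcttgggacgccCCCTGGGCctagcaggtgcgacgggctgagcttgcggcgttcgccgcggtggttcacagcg
The window at Atp5l holds no TFAP2 string, although the peak was strong, and it holds 1 AP-1 string (TGANTCA). Tcfap2a is the annotation's name for Tfap2a itself.

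The 10 strongest promoter peaks were mostly at promoters that are not of the high CpG class. By mean rank of enrichment over both replicates, the first 10 were those of the gene model Gm10974, Casp1 (an inflammatory protease), Pabpc4 (a poly(A)-binding protein), Atp5l (a subunit of the mitochondrial ATP synthase), the gene model Gm11032, Sepp1 (the plasma selenium carrier), Nek10 (a kinase), Gas7 (a cytoskeletal adaptor), Fermt2 (kindlin-2, an integrin activator) and Nek6 (a mitotic kinase). The peak at Gm10974, with its summit 254 bp downstream of the TSS, had an enrichment of 30.7 in replicate 1 and 29.4 in replicate 2 (mean 30.1 ± 0.864, SD, n = 2). The peak at Casp1 reached 25.6 and 27.4, in a coding exon 794 bp downstream. Pabpc4 reached 23.8 and 23.1, with its summit 134 bp upstream. Of these 10 only Pabpc4 and Atp5l had a promoter of the high CpG class, defined below. At Atp5l the values were 25.4 and 20.7, at Sepp1 17.9 and 24.4, and at Nek6 17.5 and 19.5. The weakest by the same ranking were Fzr1, an activator of the anaphase-promoting complex, at 2.25 and 2.04, and Thoc1, of the mRNA export complex THO, at 2.18 and 2.35.

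Promoter peaks were weaker than the other shared peaks in both replicates. Their median enrichment was 4.48 in replicate 1 and 4.98 in replicate 2 (mean 4.73 ± 0.358, SD, n = 2), against 6.23 and 6.76 (6.5 ± 0.375) elsewhere. The ratio of the medians was 0.719 and 0.737 (0.728 ± 0.0131). With 2 replicates an exact permutation test cannot go below p = 0.5, so no p is given. The strongest peaks of the line lay elsewhere: the upper decile of shared peaks held 51 promoter peaks (1.94% of them) in replicate 1 and 49 (1.87%) in replicate 2, whereas the lowest decile held 22.8% and 20.9%. Promoter peaks had a median width of 423 bp, and the others 457 bp. The gap was narrower for the significance of the peaks, whose median −log10 p was 23.3 and 25.9 at promoters and 27.2 and 29.2 elsewhere.

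**Figure D1:**
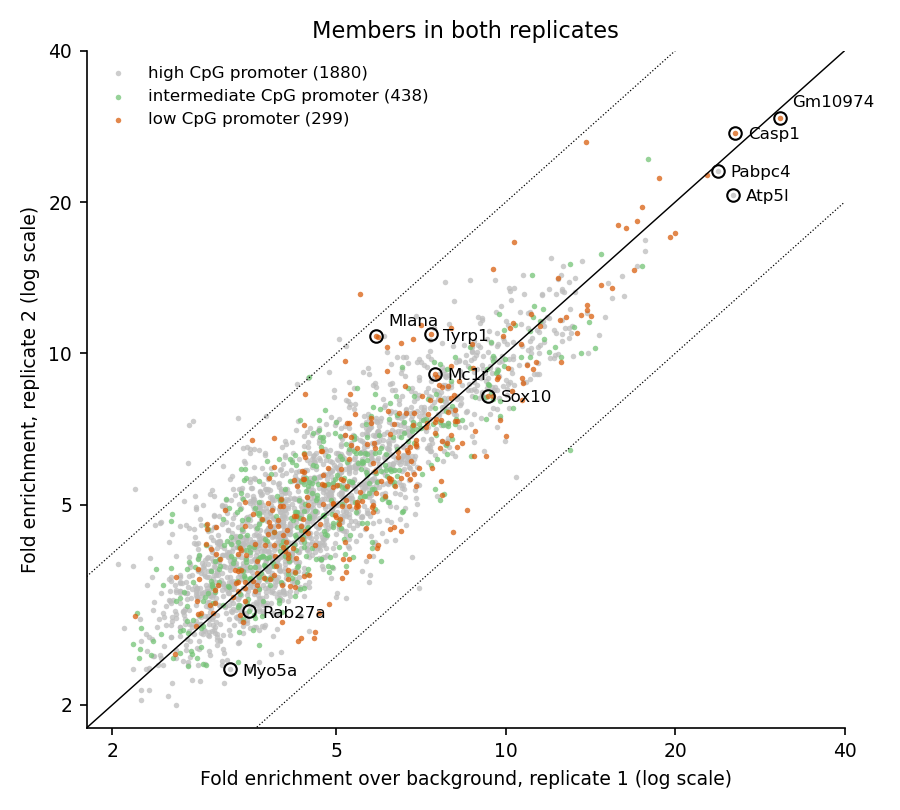
Enrichment of the 2617 promoter peaks with a one-to-one partner, replicate 1 against replicate 2, both axes on a log scale, 1 point per peak, coloured by the CpG class of the nearest promoter; the solid line marks equal values and the dotted lines a 2-fold difference. Most points lie between the dotted lines, and orange points of the low CpG class are frequent among the strongest peaks.

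The replicates ordered the promoter peaks much alike, with a Spearman rank correlation of enrichment of 0.844, against 0.835 for the other shared peaks. For 2617 of the 2629 a replicate 2 peak was the mutual best overlap, and 12 had none. Between replicates 99.5% of the 2617 differed by less than 2-fold, against 98.2% of the other shared peaks. Enrichment was higher in replicate 2 for 62.1% of promoter peaks and for 57.0% of the others. The median distance between the summits of a pair was 24 bp in both classes.

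Peaks at TSSs were found again in the other replicate somewhat more often than peaks elsewhere, despite being weaker. In replicate 1, 2629 of 2922 peaks at TSSs were shared (90.0%, 88.8 to 91.0), against 86.5% (85.9 to 87.0) of the rest (two-sided Fisher's exact test over peaks, p = 1.2e-07). In replicate 2, the shares were 77.2% and 75.8%, a difference that did not pass the same exact test (p = 0.098). Peaks are not replicates, so these tests describe the 2 lists. The difference varied with the strength of the peaks, and by enrichment it was widest in the second quartile from the bottom in both replicates. In the lowest quartile of replicate 1 peaks by enrichment, 80.7% (78.5 to 82.8) of peaks at TSSs and 68.8% (67.2 to 70.4) of others were shared. In the lowest quartile of replicate 2, the values were 63.6% (61.1 to 66.0) and 57.3% (55.7 to 58.9). In the next quartile they were 95.6% and 80.4% in replicate 1, and 80.7% and 64.4% in replicate 2. In the quartile above that they were 99.1% and 92.6%, and 92.2% and 80.1%. In the top quartile nearly every peak was shared: all 313 at TSSs and 99.6% of the others in replicate 1, and 98.6% and 96.0% in replicate 2. Ordered by −log10 p instead, the shares in the lowest quartile of replicate 1 were 70.0% (66.6 to 73.3) at TSSs and 63.9% (62.3 to 65.4) elsewhere, and those in replicate 2 were 48.8% (45.4 to 52.2) and 45.1% (43.6 to 46.5). By this order most of the gap was lost in replicate 2, whose next quartiles gave 71.1% and 68.5%, then 92.9% and 90.0%. In replicate 1 they gave 92.5% and 83.7%, then 99.4% and 97.8%.

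The summits gathered around the TSS with a slight excess upstream of it. The median summit lay 23 bp upstream of the nearest TSS, and the middle 50% ran from 231 bp upstream to 207 bp downstream. Of the 2629 summits, 1421 (54.1%, 52.1 to 56.0) lay upstream, 1199 (45.6%) downstream and 9 on the TSS itself. The median distance without regard to side was 220 bp, with 27.3% of summits within 100 bp, 54.1% within 250 bp and 76.6% within 500 bp. Replicate 2 summits of the same peaks gave 53.6% upstream and a median distance of 221 bp, and 94.6% of summits fell on the same side in both replicates. The bin with most summits was the 100 bp just upstream of the TSS, with 382 in replicate 1, against 334 in the first 100 bp downstream. The upstream excess was larger among the stronger peaks, reaching 62.7% when each replicate's list was limited to its upper 50% by enrichment before peaks were matched. It depended on the choice of TSS, since with the TSS farthest 5' of each gene alone 49.5% of summits lay upstream.

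**Figure D2:**
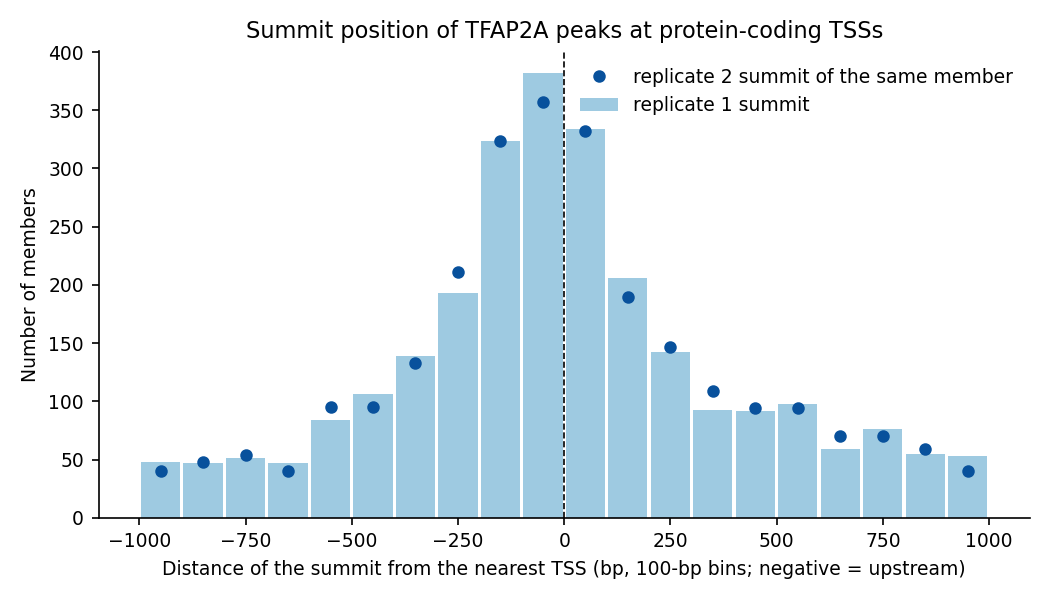
Number of promoter peaks by the distance of their summit from the nearest protein-coding TSS in 100-bp bins, negative values upstream, with bars for replicate 1 and dots for replicate 2. Both replicates are highest in the 100 bp just upstream of the TSS, with 382 and 357 summits, and fall to 48 and 40 in the outermost upstream bin.

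By location, 38.2% of summits lay outside protein-coding genes, 34.7% in introns, 20.4% in UTRs and 6.62% in coding exons. Peaks outside genes had the highest median enrichment of the 4 classes, 4.83 in replicate 1 and 5.28 in replicate 2, and peaks in coding exons the lowest, 4.0 and 4.55. At the edge of the 1 kb window, the members just inside were at Lpin1, a phosphatidate phosphatase, 1000 bp downstream with enrichments of 5.33 and 5.55, and at Itga5, the fibronectin receptor subunit alpha 5, 1000 bp upstream with 5.71 and 5.52. Just outside were peaks at Ccdc114, a dynein docking factor, 1001 bp upstream with 11.3 and 9.65, and at the gene model Gm9837, 1003 bp downstream with 5.49 and 7.07. The strong Ccdc114 peak thus fell out by 1 bp.

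CpG-rich promoters carried most of the peaks. Promoters were classed by the region from 900 bp upstream to 400 bp downstream of the TSS farthest 5': high where some 500-bp window had a CpG observed-to-expected ratio over 0.75 and a GC content over 55%, low where no window passed a ratio of 0.48, and intermediate otherwise. Genes have the class of that TSS, whereas a peak has the class found in the same way at the TSS nearest to its summit. A promoter peak was present at 1814 of 9608 genes of the high class (18.9%, 18.1 to 19.7), 379 of 4201 of the intermediate class (9.02%, 8.17 to 9.93) and 157 of 7601 of the low class (2.07%, 1.76 to 2.41). The high class differed from the rest (two-sided Fisher's exact test over genes, p = 1.1e-250), and it made up 77.2% of bound genes but 44.9% of all genes. Genes are not replicates, so this test too describes these 2 lists.

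The base composition right under the summits differed in the same way. In windows reaching 250 bp to either side, promoter peaks had a median GC content of 59.9% and a median CpG ratio of 0.698, and other shared peaks 46.3% and 0.192. A window with GC over 50% and a ratio over 0.6, called CpG-rich below, was found at 1599 promoter peaks (60.8%, 58.9 to 62.7) and at 270 other shared peaks (2.05%, 1.82 to 2.31).

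Enrichment ran against CpG content. Peaks nearest to a high-class promoter had medians of 4.39 and 4.92 in replicates 1 and 2 (4.65 ± 0.377, SD, n = 2), and those nearest to a low-class promoter 5.31 and 5.61 (5.46 ± 0.216). The low class supplied 6.53% (4.77 to 8.70) of the weakest quartile of promoter peaks by replicate 1 enrichment and 17.8% (15.0 to 21.0) of the strongest. The high class still supplied most of the strongest quartile, 65.9% (62.1 to 69.5), against 76.9% (73.5 to 80.1) of the weakest. Split by the summit window, CpG-rich promoter peaks had a median of 4.28 and 4.81 and CpG-poor ones 4.91 and 5.31. The 270 CpG-rich peaks away from TSSs were near the promoter level, at 4.58 and 5.23. The CpG-poor peaks away from TSSs reached 6.28 and 6.81. So among CpG-poor peaks the promoter ones were still the lower class in both replicates.

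Genes arranged head to head with a neighbour were bound more often than other genes. Such a pair was defined as a minus-strand and a plus-strand gene whose TSSs farthest 5' lie at most 1 kb apart and that are read away from each other. There were 808 pairs with 1605 genes and a median gap of 145.5 bp. Of the genes with such a partner 338 (21.1%, 19.1 to 23.1) had a promoter peak at that TSS, against 2012 of 19805 without (10.2%, 9.74 to 10.6; two-sided Fisher's exact test, p = 1.7e-34). A single peak within reach of both TSSs counts for both genes of a pair, which the test does not take into account. The 1 kb window of a paired gene also takes in sequence at its partner's promoter, so the shares compare unlike windows. Summits per length of sequence are given below. The difference in shares was smaller within CpG classes. By the same exact test within classes, the shares were 22.2% and 18.3% in the high class (p = 0.00092), in the intermediate class 16.2% and 8.69% (p = 0.0014), and in the low class, where 44 genes had a partner, 6.82% and 2.04% (p = 0.062).

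**Figure D3:**
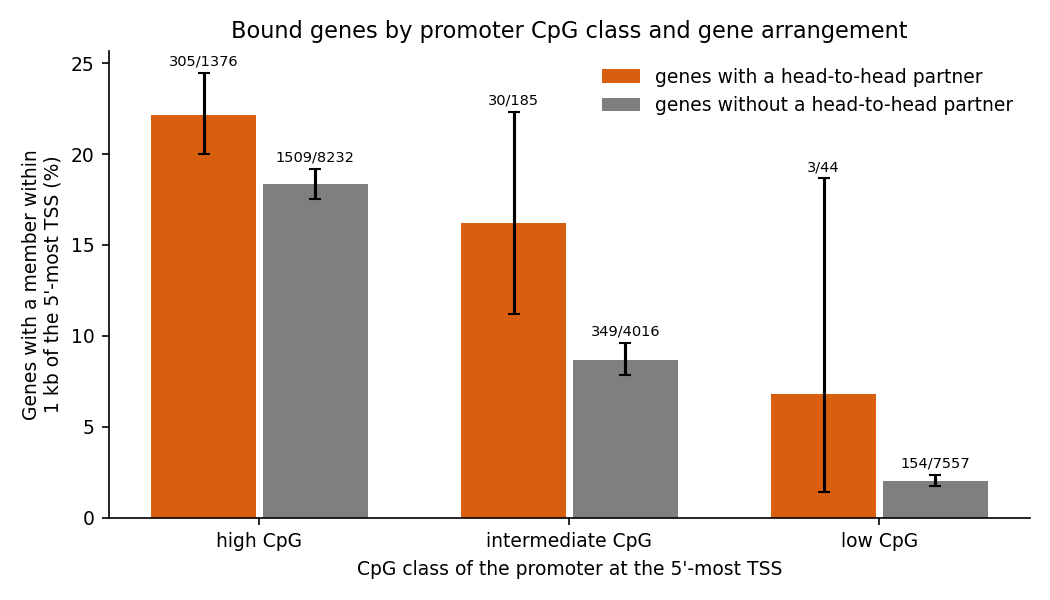
Share of protein-coding genes with a promoter peak within 1 kb of the TSS farthest 5', by CpG class and by whether the gene has a head-to-head partner; bars start at 0, error bars are exact 95% intervals and the fractions give bound of all genes. The share falls from 22.2% and 18.3% in the high class to 6.82% and 2.04% in the low class.

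Counted as pairs, 179 of 808 (22.2%, 19.3 to 25.2) had a promoter peak, and in 163 of these a peak lay within 1 kb of both TSSs. The strongest were at Hspb2 and Cryab, both small heat shock proteins, with enrichments of 16.9 and 14.7 in replicates 1 and 2. That summit lay 67 bp inside Cryab. Next came the gene models 1200016B10Rik and 1190005F20Rik with 15.0 and 11.8. At Hdlbp, an RNA-binding protein, and Sept2, a septin, the values were 12.6 and 11.7. The other pairs given here, all among the first 10, had means from 9.69 to 11.8 and covered varied functions. Pdcd10, a vascular signalling adaptor, faced Serpini1, neuroserpin, with 13.2 and 9.90. Sdhaf2, an assembly factor of succinate dehydrogenase, faced Cpsf7, of the pre-mRNA cleavage machinery, and of the pairs given this peak spread most between replicates, at 7.81 and 13.9. The others were Ccni with 2010109A12Rik, Erp44 with Invs, Tmed7 with Eif1a, and Slc25a27 with Cyp39a1. Some peaks counted for several pairs, because a pair is listed more than once or a gene has several partners. So the 179 bound pairs are not all independent.

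The position of the peaks within pairs was read against the length of the regions. The strongest peak lay between the TSSs in 36 of 179 bound pairs (20.1%, 14.5 to 26.7), inside the minus-strand gene in 72 and inside the plus-strand gene in 71. Per length the regions were alike: 20.5 summits per 100 kb between the TSSs (37 summits) and 18.3 per 100 kb in the first 250 bp inside the genes (74 summits). High-class genes without a partner had 21.0 summits per 100 kb in the 250 bp upstream and 15.9 in the 250 bp downstream. The region between paired TSSs was thus near the upstream value, and the inside of paired genes somewhat above the downstream one. These differences were not tested. Peaks at pairs were as strong as other promoter peaks, with medians of 4.53 and 4.97 against 4.47 and 4.99, and 68.0% (60.5 to 74.8) held a TFAP2 string against 68.1% (66.2 to 70.0).

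The TFAP2 string was concentrated under the summits of promoter peaks. Within 50 bp of the summit, 1791 of 2629 (68.1%, 66.3 to 69.9) held GCCNNNGG on either strand, against a mean of 26.9% in equally long windows 400 bp away on each side. That is 2.53 times as many (exact McNemar test within peaks, Benjamini-Hochberg adjusted over 13 strings, p = 1.3e-185). Other shared peaks held the string at the summit less often, in 54.9% (54.0 to 55.7; share at promoter summits against other summits, Fisher's exact test, adjusted p = 3.8e-36). Their flanks held it in 13.0%, so their rise over the flank was larger, 4.22-fold, a difference in rise that was not tested. In percentage points, the excess over the flanks was 41.2 at promoter peaks and 41.9 at the others. The string's nearest copy was centred at a median of 23.5 bp from the summit. By enrichment quartile of the promoter peaks, from the weakest to the strongest, 65.7%, 68.1%, 67.3% and 71.4% held the string.

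**Figure D4:**
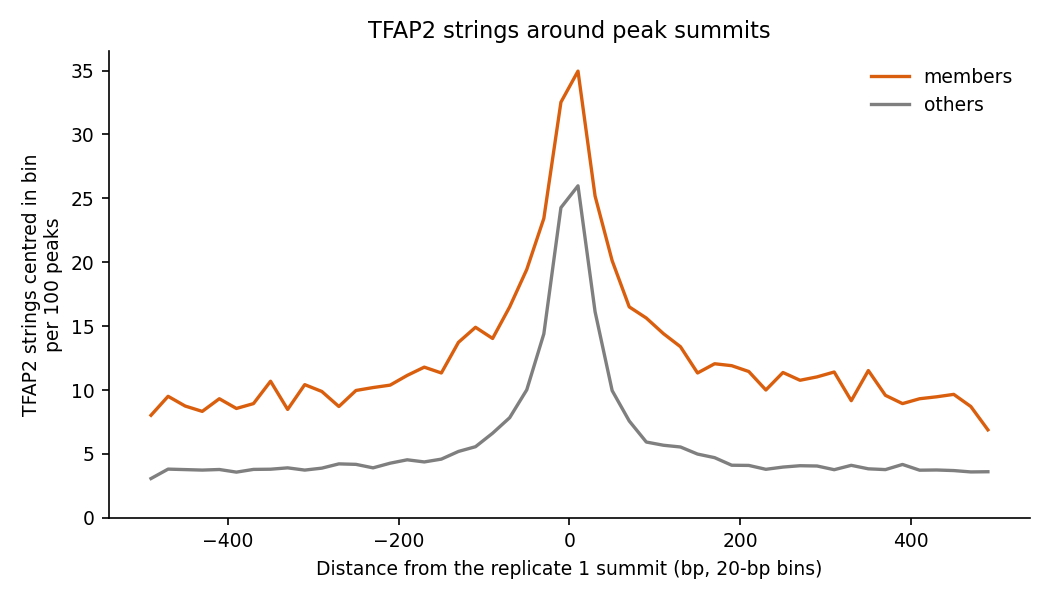
TFAP2 strings per 100 peaks in 20-bp bins by distance from the replicate 1 summit, for the promoter peaks (members) and the other shared peaks (others). Both curves are highest in the bin just right of the summit on the plus strand, at 35.0 and 26.0, and the promoter peaks keep the higher level away from the summit.

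The string is frequent at CpG-rich promoters without a peak too, so these were set beside the peaks. In equally long windows around the median summit position, 23 bp upstream of the TSS, 31.9% of all protein-coding promoters and 45.1% of the high class held it. Among high-class promoters that were not bound the share was 44.1% (43.0 to 45.2). Around the summits of the 506 promoter peaks within 100 bp of a high-class TSS it was 75.7% (71.7 to 79.4). These windows follow the summit, whereas the windows at promoters have a fixed place. At the same fixed place 49.0% (46.7 to 51.3) of the bound high-class promoters held the string. CpG-rich promoter peaks held it in 72.0% (69.8 to 74.2) with 29.5% in the flanks, and CpG-poor ones in 62.0% (59.0 to 65) with 23.1%. A control string of the same bases in another order, CGGNNNCG, which itself holds CpG, was at 25.5% of summits and 18.8% of flanks, an excess of 6.68 percentage points (exact McNemar test, adjusted p = 3.8e-08).

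Counting the overlapping matches of both strands at GCCNNNGGC once, 838 promoter peaks held no TFAP2 string within 50 bp, 1094 held 1, 523 held 2, 140 held 3 and 34 held 4 or more. The most, 5 each, were under the peak at Bambi, a decoy receptor of the TGF-beta family, with enrichments of 12.2 and 11.1, and under that at the gene model E030030I06Rik, with 9.64 and 8.48. Both windows were CpG-rich. Peaks with and without the string differed little in enrichment, with medians of 4.52 and 5.09 against 4.39 and 4.85.

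Strings of other factors were rarer under the summits. GGGCGG, bound by SP and KLF factors, was at 23.6% of summits and 15.8% of flanks (exact McNemar test, adjusted p = 1.7e-11), an excess of 7.82 percentage points that is near that of the control string. CCGGAAG, bound by ETS factors, was at 4.49% and 1.96% (exact McNemar test, adjusted p = 1.0e-05). The TATA string TATAAA was less frequent at summits, 1.86%, than in flanks, 3.80% (exact McNemar test, adjusted p = 0.00017). These strings went the same way at the other shared peaks. There GGGCGG was at 3.11% of summits and 1.96% of flanks, CCGGAAG at 0.813% and 0.406%, and TATAAA at 4.02% and 7.77%. AP-1, the dimer of Fos and Jun proteins, binds TGANTCA, which was at 3.16% of promoter summits against 1.84% of flanks (exact McNemar test, adjusted p = 0.026). At other shared peaks it was at 9.32%, with 3.16% in their flanks (promoter peaks against others, Fisher's exact test, adjusted p = 2.1e-30). The AP-1 string went with CpG-poor promoter peaks, at 6.31% (4.90 to 7.97) with 2.14% in the flanks, whereas CpG-rich ones had 1.13% (0.668 to 1.77) with 1.66%. GGAATG, bound by TEAD factors, was at 5.74% of promoter summits, with 4.75% in the flanks, and 11.4% of other summits, with 5.73% (Fisher's exact test, adjusted p = 5.8e-20). TCATGTG, the M-box of MITF-type factors, was at 0.647% and 2.28% (Fisher's exact test, adjusted p = 2.0e-09), and the flanks already differed, with 0.951% at promoter peaks and 1.88% at the others. A match shows only that the letters are there, and its absence says nothing of the factor.

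Pigment cell genes were bound at their promoters more often than the background. Of 19 listed genes 9 (47.4%, 24.4 to 71.1) had a promoter peak at some TSS, against 12.5% of all protein-coding genes. With peaks at any TSS counted, the shares bound were 20.4%, 10.6% and 3.55% in the high, intermediate and low class. Weighting these 3 shares by the make-up of the list, in which 15.8% of genes are of the high class, gives 9.18%. Weighted shares below were made in the same way. The study singled out several of these genes on these samples, so the count is no independent evidence. Tyrp1, an enzyme of melanin synthesis, had a summit 10 bp downstream of a TSS with enrichments of 7.35 and 10.9 (9.13 ± 2.52, SD, n = 2). Mlana, a melanosome protein, had one 256 bp upstream with 5.88 and 10.8. Slc45a2, a melanosomal transporter, had a main peak 129 bp upstream with 5.92 and 10.8. All 3 were higher in replicate 2. A second Slc45a2 peak 628 bp upstream reached 3.74 in replicate 1 and had no replicate 2 partner of its own.

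The other bound pigment genes were closer between replicates. Mc1r, the melanocortin receptor, had a peak 693 bp upstream with 7.47 and 9.10. Gpnmb, a melanosomal glycoprotein, had one 14 bp downstream with 6.0 and 5.82, and Oca2, a melanosomal membrane protein, one 415 bp downstream with 4.21 and 5.61. The others were weak, below the median promoter peak in both replicates. Dct, a melanin synthesis enzyme, had 3.43 and 3.60, 410 bp upstream. Rab27a, which tethers melanosomes to the motor, had 3.50 and 3.07, and Myo5a, the myosin motor that carries them, had 3.24 and 2.35. All 9 genes but Myo5a had a low or intermediate CpG class.

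No shared promoter peak lay at Tyr, Pmel, Slc24a5, Slc24a4, Mlph, Rab38, Rab32, Trpm1, Kit or Ednrb. At 3 of these a peak was present in replicate 2 alone. Tyr, which encodes the rate-limiting enzyme of melanin synthesis, had one 18 bp downstream of a TSS with an enrichment of 4.15. Ednrb, the endothelin receptor, had one 250 bp upstream with 4.14, and Slc24a4, an ion exchanger, one 57 bp downstream with 3.27. For Mlph, the link between Rab27a and myosin, the nearest shared peak was a strong one of 26.5 in replicate 1, 3334 bp downstream, and for Rab32, a melanosome trafficking GTPase, one of 13.6, 2354 bp downstream. For Trpm1 the study reports a TFAP2A peak near the promoter in mouse melanocytes. In these lists neither replicate had a peak within 1 kb of any of its 11 TSSs. The nearest shared summit was 16762 bp downstream, and the reason for the difference was not tested. Gpr143 lies on the X chromosome and was not counted.

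Among the transcription factors of neural crest and melanocytes 4 of 14 (28.6%, 8.39 to 58.1) had a promoter peak. The interval includes both the 12.5% of all protein-coding genes and the weighted share of 15.7%. Sox10, a neural crest and melanocyte regulator, had one 935 bp upstream with 9.30 and 8.24. Tfeb, an MITF relative (Tcfeb in the annotation), had 3 promoter peaks at 3 of its TSSs, with 6.76 and 6.50 at the strongest. Lef1, an effector of Wnt signals, had 4.06 and 6.29, and Tfap2a itself 3.13 and 2.40, 662 bp upstream with 2 TFAP2 strings. Mitf, the master regulator of the lineage, had no shared promoter peak: its nearest shared summit was 1132 bp upstream with 8.18 in replicate 1, just past the 1 kb limit, and a peak in replicate 2 alone lay 27 bp upstream with 3.63. Pax3, Tfap2b, Tfap2c, Sox9, Sox5, Snai2, Foxd3, Irf4 and Zeb2 had no peak within 1 kb of a TSS in either replicate. Tfe3 lies on the X chromosome.

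**Figure D5:**
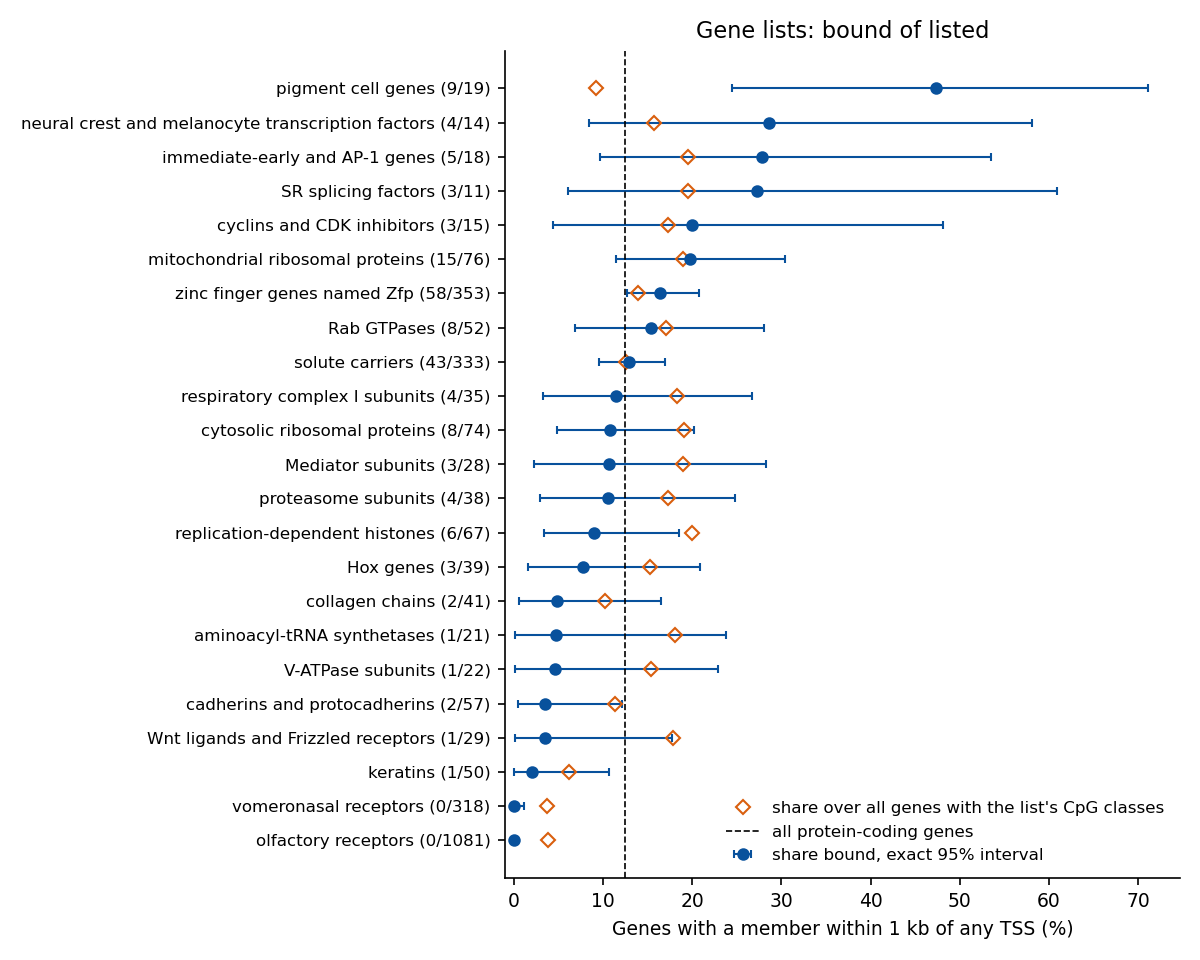
Share of each gene list with a promoter peak within 1 kb of any TSS, with exact 95% intervals; the dashed line is the share over all protein-coding genes, and open diamonds give the share that genes of the same CpG classes have. Pigment cell genes lie farthest right at 47.4%, and olfactory and vomeronasal receptors at 0.

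Genes that most cells use were bound near or below the level of their CpG class. Of the mitochondrial ribosomal proteins 15 of 76 (19.7%, 11.5 to 30.5) had a promoter peak, with a class-weighted share of 19%. Mrps17 led them with 9.82 and 12.4. Of the cytosolic ribosomal proteins, with a weighted share of 19% too, 8 of 74 (10.8%, 4.78 to 20.2) were bound, with Rpl10a highest at 6.22 and 4.98. Proteasome subunits (4 of 38), subunits of respiratory complex I (4 of 35), Mediator subunits (3 of 28), subunits of the V-ATPase, the proton pump of acidic organelles (1 of 22), and aminoacyl-tRNA synthetases (1 of 21) all lay below the weighted shares, which ran from 15.4% to 19%, and each interval includes its weighted share. Of the replication-dependent histones 6 of 67 were bound (8.96%, 3.36 to 18.5), which is below the 20.0% weighted for their nearly uniform high class. Even so Hist1h4i, a histone H4 gene, had one of the stronger promoter peaks, with 13.7 and 15.3.

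For each list in this paragraph the interval includes the weighted share. Zinc finger genes named Zfp had 58 of 353 (16.4%, 12.7 to 20.7, weighted 13.9%), with Zfp963 at 14.0 and 12.0. Solute carriers had 43 of 333 (12.9%, 9.51 to 17.0, weighted 12.6%), among them Slc30a2, a zinc transporter, with 10.8 and 13.1. Rab GTPases had 8 of 52 (15.4%, 6.88 to 28.1, weighted 17.0%), with Rab5a of early endosomes at 9.15 and 8.15. Immediate-early and AP-1 genes had 5 of 18 (27.8%, 9.69 to 53.5, weighted 19.5%). Their strongest was Dusp1, a phosphatase of MAP kinases, with 11.9 and 11.8, and the next Ier2 with 3.81 and 4.14 and Jund with 3.42 and 3.78. SR splicing factors had 3 of 11 (27.3%, 6.02 to 61.0, weighted 19.5%), namely Srsf7, Srsf3 and Srsf1, all with a mean of 4.41 or less. Cyclins and inhibitors of cyclin-dependent kinases had 3 of 15 (20.0%, 4.33 to 48.1, weighted 17.3%): Ccna2, the cyclin of S phase, with 8.57 and 9.44, Cdkn2b with 5.73 and 4.74, and Ccnd3 with 4.94 and 4.97.

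Other large families had few bound genes, and for most of them the interval includes the weighted share. None of 1081 olfactory receptors (upper 95% limit 0.341%) and none of 318 vomeronasal receptors (upper limit 1.15%) had a promoter peak, below their weighted shares of 3.80% and 3.67%. Keratins had 1 of 50 (2.0%, 0.0506 to 10.6, weighted 6.14%), Krt80, with enrichments of 2.93 and 4.17. Cadherins and protocadherins had 2 of 57 (3.51%, 0.428 to 12.1, weighted 11.3%). Collagen chains had 2 of 41 (4.88%, 0.596 to 16.5, weighted 10.2%) and Hox genes 3 of 39 (7.69%, 1.62 to 20.9, weighted 15.3%). Of the Wnt ligands and Frizzled receptors 1 of 29 was bound, Fzd7, with 3.52 and 4.11. These 29 genes are largely CpG-rich, at 79.3% of the high class, for which the weighted share was 17.9%, just above the interval of 0.0873 to 17.8.

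A few genes carried several promoter peaks. Of the 2676 bound genes 2458 had 1 peak, 204 had 2, 12 had 3, 1 had 4 and 1 had 5. Plec, the cytolinker plectin, had 5, from 2.44 and 2.77 at the weakest to 7.21 and 7.15 at the strongest. Zmiz1, a transcriptional coregulator, had 4, and of its 4 the one 554 bp upstream of a TSS had no replicate 2 partner of its own. Of the 12 genes with 3 peaks, the first in alphabetical order were Agpat1, a lipid acyltransferase, Cbx5, the heterochromatin protein HP1 alpha, and Eef2k, the kinase of elongation factor eEF2. At Cbx5 the strongest by the mean, 905 bp downstream of a TSS, reached 8.05 and 4.42. In replicate 2 another Cbx5 peak, shared with Hnrnpa1, ranked above it, with 6.38 and 4.95 in replicates 1 and 2. At Eef2k a peak 947 bp downstream stood out at 9.64 and 8.90, while the other two were below 3 in both replicates.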

How the data were processed

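Peak lists of 2 TFAP2A ChIP-seq replicates of melan-a cells were used as deposited, 1 list per replicate, not pooled. The submitters' processing notes name BWA, MACS 1.4.2 and mm9 without roles, and its read filters are not stated in what was used here. The layout of the lists, with a summit offset and q-values, is that of the narrowPeak format of later MACS versions, so the version that made them, and how the enrichment was computed, are uncertain. Per the deposited columns each peak has its position, its summit, a fold enrichment (a ratio to background), a −log10 p-value, a −log10 q-value and a score that is the whole part of 10 times −log10 p. Positions are printed 1-based. The reference genome NCBIM37 is the assembly mm9, and 0 peaks passed a chromosome end. The annotation is GENCODE mouse version 1 (Ensembl 65).

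Shared peaks, distances, CpG classes, gene pairs and strings were computed with Python 3.11.15, pandas 2.3.3, pysam 0.24.0, samtools 1.23.1 and scipy 1.17.1 (Fisher's and McNemar's exact tests, two-sided, threshold 0.05). Figures were drawn with matplotlib 3.10.9. The scripts were first tested on simulated data. Shares carry exact Clopper-Pearson 95% intervals, over peaks or genes, which are not replicates. Replicates were grouped by their labels. Both come from 1 line, nothing used here says that they are separate cultures, so their spread may be technical, and p-values describe the lists. The reads behind the lists, and so the depth, are unknown. The input was not analysed on its own.

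Genes were named by these rules: the 10 strongest and 2 weakest peaks by mean rank, all genes of the pigment and transcription factor lists, the 10 strongest pairs, the 5 genes with most peaks, up to 3 genes of each other list (gene models named Gm or Rik left out), the 2 peaks with most TFAP2 strings, and the 2 peaks on each side of the 1 kb limit. A few genes that these rules name are not reported here. The peaks, gene lists and tests were chosen with earlier results of these data known. The counting of overlapping TFAP2 strings as 1, the splits of strings and sharing by CpG content and by −log10 p, and the summit densities were added after the data were seen. Of the listed genes 1, Rpl41, was not matched. Alternatives left out each replicate, exchanged them, and changed the thresholds, windows, overlaps, TSS sets and strings.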

Additional observations from a re-analysis of the deposited data

Results flagged for a closer look

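Peaks outside the comparisons also lay at promoters. On the X chromosome 61 of 301 shared peaks (20.3%, exact 95% interval 15.9 to 25.3) had their summit within 1 kb of a protein-coding TSS, with a median enrichment of 5.81 in replicate 1, and 62 of 932 X-linked genes (6.65%) had such a peak.

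Peaks found in 1 replicate alone were in part at promoters too. Of 2354 peaks of replicate 1 alone, 293 (12.4%, 11.1 to 13.8) lay at a TSS, with a median enrichment of 3.11, and they covered 258 genes that had no shared promoter peak. Of 5028 peaks of replicate 2 alone, 791 (15.7%, 14.7 to 16.8) did, with a median of 3.73, and they covered 671 further genes, Tyr, Ednrb, Slc24a4 and Mitf among them.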

How the results depend on the processing

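No paired analysis was possible because there is 1 condition with 2 replicates and no second group. The tests of gene pairs over all classes, CpG class and TFAP2 strings against flanks kept their direction and stayed past the threshold under the alternatives that gave a p. With all distinct TSSs the CpG class test gave a difference of 14.3 percentage points and its p is not printed. The tests of pairs within CpG classes were run in 1 setting only. The sizes moved: with each replicate's list limited to its upper 50% by enrichment before matching, the pair difference fell from 10.9 to 2.33 percentage points and the CpG class difference from 14.3 to 3.61, and with GCCNNNGGC the TFAP2 excess fell from 41.2 to 18.8. The shares, distances and ratios moved as follows. Leaving out a replicate gave 16.1% to 16.5% of peaks at TSSs, 13.7% to 15.6% of genes, 51.5% to 53.6% of summits upstream, a median distance of 227 to 230 bp and an enrichment ratio of 0.745 to 0.756. With each list limited to its upper 50% by enrichment the same 5 values were 9.58%, 3.66%, 62.7%, 234 bp and 0.860. With 500 bp either side of the TSS they were 12.7% of peaks, 9.78% of genes, 56.8% upstream and 154 bp. With the TSS farthest 5' alone they were 14.0%, 11.0%, 49.5%, now below 50%, and 255 bp. With −log10 p in place of enrichment the ratio was 0.873. The higher sharing of peaks at TSSs no longer passed Fisher's exact test from replicate 2, at 1.33 percentage points (p = 0.098). Limiting the peaks or the window leaves fewer of them by construction, and the cause of the other changes was not tested. The lists hold called peaks only, so a gene without one may lie below the calling threshold, and the read depth behind that threshold is unknown.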

Other observations

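Strings of other promoter factors were set side by side for 506 promoter peaks within 100 bp of a high-class TSS and 7794 unbound high-class promoters, the first in windows centred on the summit and the second in equally long windows around the point 23 bp upstream of the TSS. The SP and KLF string GGGCGG was at 38.1% (33.9 to 42.5) of the peaks and 52.6% (51.5 to 53.7) of the unbound promoters. CCAAT was at 11.9% (9.17 to 15.0) and 18.4% (17.5 to 19.2), the NRF1 string GCGCATGC at 1.58% (0.685 to 3.09) and 3.71% (3.30 to 4.15), and the CRE string TGACGTCA at 0.395% (0.0479 to 1.42) and 2.51% (2.18 to 2.89). The YY1 string AAGATGGC, at 2.17% and 1.85%, and the E-box CACGTG, at 3.95% and 5.18%, had overlapping intervals. So did the ETS string CCGGAAG, at 9.88% and 12.2%, and the control string CGGNNNCG, at 49.6% and 52.1%. No test was run on these shares.

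By chromosome, the share of protein-coding genes with a promoter peak at any TSS ran from 10.2% on chromosome 2 to 14.9% on chromosome 18 over the 19 autosomes.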
